A study of Homo sapiens with 24 samples.

Results

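Metallothioneins and the genes that set the zinc response were followed through hypoxia in 4 human cancer cell lines. The 9 genes were chosen by symbol from the 23106 gene symbols counted, and all 9 were found: the metallothionein genes MT2A, MT1X, MT1E, MT1F, MT1G, MT1M and MT3, the transcription factor gene MTF1 and the zinc exporter gene SLC30A1. The lines were A549 (lung cancer, grown in F12K), HCT-116 (colorectal cancer, grown in McCoy's 5a), PC3 (prostate cancer, grown in F12K) and T47D (breast cancer, grown in DMEM), all in medium with serum, glutamine and antibiotics. No line carried an engineered allele in the labels. Polyadenylated RNA was sequenced in normoxia (21% oxygen) and after 16 h of hypoxia (0.5% oxygen), with 3 libraries in each of the 8 groups and 24 libraries in all. A549 and PC3 cells shared a medium, while medium and line changed together in every other pair of lines. In those other pairs a difference between lines cannot be told apart from a difference between media. The labels do not say whether the 3 libraries of a group came from separate cultures, so the p values below measure the spread between these libraries.

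Metallothioneins are small proteins whose many cysteines bind zinc and copper. When free zinc rises, MTF1 binds metal response elements (MREs) upstream of metallothionein genes and of SLC30A1, which raises zinc storage and zinc export together. Hypoxia acts on many genes through the hypoxia-inducible factors, which bind hypoxia response elements (HREs), and metallothionein genes are also known to respond to glucocorticoids and to oxidative stress.

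The libraries held between 22698584 and 62850747 counts. A level is given as CPM, the count scaled to the size of its library, and a count of 3, taken as the floor, was worth between 0.0436 and 0.132 CPM; this floor covers counting error only. A gene was called changed when its edgeR p value, adjusted by the Benjamini-Hochberg method over all genes tested in that line, was under 0.05 and its fold change was over 1.2. Of 10 hypoxia marker genes, 10 were called up in A549, HCT-116 and T47D cells and 9 in PC3 cells. Of the 6 marker genes listed for each line, KLK3 and FOLH1 had 0 counts in all PC3 libraries, where HOXB13 stood at 88.3 CPM, and CDX1 and LGR5 had 0 counts in all HCT-116 libraries, where CDX2 stood at 15.9 CPM. Of the A549 list, ALDH1A1 and AKR1B10 stood at 6270 and 3370 CPM in A549 cells, while NKX2-1 and the surfactant genes SFTPB and SFTPC had at most 4, 4 and 6 counts in a library. ESR1 stood at 152 CPM in T47D cells.

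The metallothionein transcripts are near copies of each other, and the coding sequences of the 3 most abundant members are shown because reads without a unique position were removed before counting. The sequences below were read from GENCODE transcripts on GRCh37, 5′ to 3′ on the coding strand, and capitals in MT1X and MT1E mark the bases that differ from MT2A.
MT2A: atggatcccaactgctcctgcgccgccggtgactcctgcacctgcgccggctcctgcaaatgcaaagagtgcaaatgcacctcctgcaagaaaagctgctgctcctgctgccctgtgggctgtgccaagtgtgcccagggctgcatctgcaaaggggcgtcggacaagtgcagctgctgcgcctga
MT1X: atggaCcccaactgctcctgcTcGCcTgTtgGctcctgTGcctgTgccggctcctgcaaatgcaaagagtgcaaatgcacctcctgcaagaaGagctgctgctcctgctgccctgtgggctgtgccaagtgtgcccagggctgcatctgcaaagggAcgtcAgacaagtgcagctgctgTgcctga
MT1E: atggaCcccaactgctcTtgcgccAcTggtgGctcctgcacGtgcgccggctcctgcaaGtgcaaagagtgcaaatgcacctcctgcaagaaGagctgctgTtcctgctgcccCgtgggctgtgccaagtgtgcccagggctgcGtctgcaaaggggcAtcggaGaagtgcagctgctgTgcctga
Each of these coding sequences was 186 nt long and 20 of its 61 codons coded for cysteine. MT1X and MT1E were each identical to MT2A at 92.5% of positions, MT1G at 95.2%, MT1F at 91.4%, MT1M at 89.8% and MT3 at 73.4%. Over whole transcripts, 8.18% of the 75-nt windows of MT1X and 6.63% of those of MT1G recurred in the transcript of another gene, against 0.794% for MT1E and 0% for MT2A, MT1F, MT1M and MT3. With 50-nt windows the shares were 18% for MT1X, 20.2% for MT1G and 11.1% for MT2A. The read length is not given in the sources used here, so the part of the reads that was lost is unknown, and the levels of MT1X and MT1G are uncertain in this respect.

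All 7 metallothionein genes lay in a cluster on chromosome 16 of GRCh37, each with 3 exons. MT2A (ENSG00000125148) was at chr16:56642496-56643409, MT1E (ENSG00000169715) at chr16:56659387-56661024, MT1F (ENSG00000198417) at chr16:56691643-56694610 and MT1X (ENSG00000187193) at chr16:56716382-56718108, all on the plus strand. MTF1 (ENSG00000188786) lay at chr1:38275246-38325264 and SLC30A1 (ENSG00000170385) at chr1:211744910-211752503, both on the minus strand. An unnamed gene overlaps MT1X in the annotation, and the strand setting of the counting step is not given in the sources used here, so reads of the 2 genes may not be separated.

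Upstream sequences are shown because the results differ between MT2A, MT1X and SLC30A1. Each is the 250 bases before the RefSeq transcription start on GRCh38.p14, on the strand of the gene, with capitals marking the MRE cores, the letters TGCACNC or TGCGCNC on either strand. The MT2A window is chr16:56608334-56608583 on the plus strand, the MT1X window chr16:56682220-56682469 on the plus strand and the SLC30A1 window chr1:211579162-211579411 on the minus strand.
MT2A: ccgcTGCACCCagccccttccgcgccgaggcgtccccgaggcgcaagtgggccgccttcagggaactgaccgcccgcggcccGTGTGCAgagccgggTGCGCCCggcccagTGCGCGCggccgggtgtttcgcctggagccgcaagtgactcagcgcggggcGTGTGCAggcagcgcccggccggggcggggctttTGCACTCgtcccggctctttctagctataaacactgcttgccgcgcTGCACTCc
MT1X: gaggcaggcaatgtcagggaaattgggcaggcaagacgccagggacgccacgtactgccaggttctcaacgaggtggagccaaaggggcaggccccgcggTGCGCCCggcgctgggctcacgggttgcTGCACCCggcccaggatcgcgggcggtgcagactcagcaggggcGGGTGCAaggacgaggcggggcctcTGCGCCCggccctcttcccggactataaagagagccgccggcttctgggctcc
SLC30A1: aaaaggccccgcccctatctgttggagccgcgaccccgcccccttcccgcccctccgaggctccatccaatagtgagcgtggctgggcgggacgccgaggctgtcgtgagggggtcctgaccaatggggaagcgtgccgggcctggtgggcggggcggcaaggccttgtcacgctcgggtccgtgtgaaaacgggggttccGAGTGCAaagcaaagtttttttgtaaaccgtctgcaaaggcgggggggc
MT2A held 7 MRE cores, MT1X held 4, SLC30A1 held 1 and MTF1 held 0. Among all 35116 RefSeq promoters of this length, 24.8% held at least 1 MRE core, 1.58% held 3 or more and 0.12% held 5 or more. The HRE core, ACGTG or GCGTG on either strand, was matched 1 time in MT2A, 1 time in MT1X, 3 times in SLC30A1 and 2 times in MTF1, against at least 1 match in 43.2% of all promoters. In MT2A the HRE core overlapped 1 of the MRE cores. A match describes these letters and not a bound site. The promoters of MT1E, MT1F, MT1G, MT1M and MT3 were not analysed here.

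**Figure D1:**
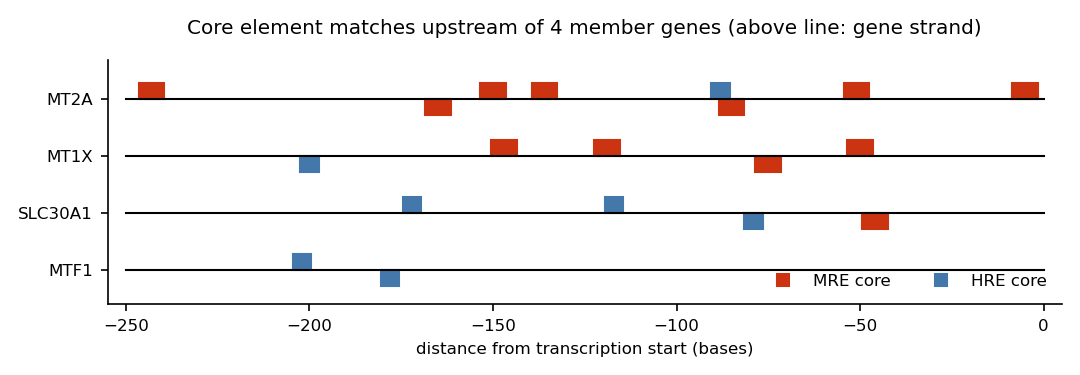
Positions of MRE core matches (red) and HRE core matches (blue) in the 250 bases before the transcription start of 4 genes, in bases from the start, with matches on the gene's strand above the line and those on the other strand below it. MT2A carries 7 MRE cores along the whole window, MT1X carries 4, SLC30A1 carries 1 and MTF1 carries 0.

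In hypoxia, 3 of the 5 members tested in A549 cells were called, all of them up, where 17.6% of the 13897 genes tested were called up and 17.8% down, 35.5% in all. In HCT-116 cells 2 of 6 were called, both up, where 23.3% of genes were called up and 27% down, 50.3% in all. In PC3 cells 1 of 5 was called, down, where 15.7% of genes were called down and 16.6% up, 32.3% in all. In T47D cells 0 of 5 were called by edgeR or DESeq2, at 0 members with an unadjusted p under 0.05, where 6.55% of genes were called up and 6.69% down, 13.2% in all. With the replicate number as a block, which pairs the T47D libraries, 1 member was called up and 1 down in this line, where 9.09% of genes were called up and 10.5% down. When each fit also corrected for GC content and transcript length, 5 members were called in A549, 4 up where 20.9% of genes were called up and 1 down where 10.7% were. With the same correction 3 were called in HCT-116, all up, where 16.8% of genes were called up and 19.6% down. In PC3 cells the call was lost with it, where 14.1% of genes were called up and 10.3% down. In T47D cells the block and the correction together called 1 member up, where 16% of genes were called up and 8.1% down. The median log2 fold change of the members tested was 1.31 in A549, 0.35 in HCT-116, -0.15 in PC3 and 0.04 in T47D cells, beside -0.01, -0.03, -0.01 and -0.01 for all genes tested. MT1G, MT1M and MT3 were tested in no line, and MT1E only in HCT-116 cells, since the others had too few counts.

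MT2A, which codes for the most widely expressed metallothionein, was the most abundant member per length in all 4 lines. In A549 cells it stood at 60.9, 61.1 and 100 CPM in the 3 normoxia libraries and at 185, 193 and 302 CPM in the 3 hypoxia libraries. The highest normoxia library was below the lowest hypoxia library. This was a log2 fold change of 1.61 ± 0.22 (SE, n = 3 and 3), or 3.04-fold, with an edgeR adjusted p of 0.000325. In bulk RNA, more cells that express a gene and more RNA of that gene per cell cannot be told apart.

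In HCT-116 cells MT2A stood at 218, 175 and 185 CPM in normoxia and at 309, 392 and 298 CPM in hypoxia. The states did not overlap, and MT2A rose by 1.58-fold (log2 fold change 0.66 ± 0.20, edgeR adjusted p 0.0162). Without HCT-116 hypoxia replicate 2, the highest library, the adjusted p was 0.0824. MT2A is encoded by a short transcript of 401 nt, and short transcripts as a whole were lower in hypoxia in this line: the 78 tested genes under 500 nt had a median log2 fold change of -1.02, with 80.8% of them below 0. With GC content and length corrected for, MT2A had a log2 fold change of 1.54 (edgeR adjusted p 0.00048).

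In PC3 cells MT2A was at 120, 125 and 113 CPM in normoxia and at 117, 98.8 and 125 CPM in hypoxia. These ranges overlapped, and the log2 fold change was -0.12 ± 0.10 (edgeR adjusted p 0.369). In T47D cells, the line with the lowest MT2A level, it was at 29.2, 16.2 and 31.9 CPM in normoxia and at 39.1, 29.2 and 51.8 CPM in hypoxia, for replicates 1 to 3. The ranges overlapped, and replicate 2 was the lowest library of both states. MT2A was higher in hypoxia in 3 of 3 same-numbered pairs. The log2 fold change in T47D cells was 0.56 ± 0.28 with an edgeR adjusted p of 0.184, and 0.58 with an adjusted p of 0.0466 with the replicate block.

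**Figure D2:**
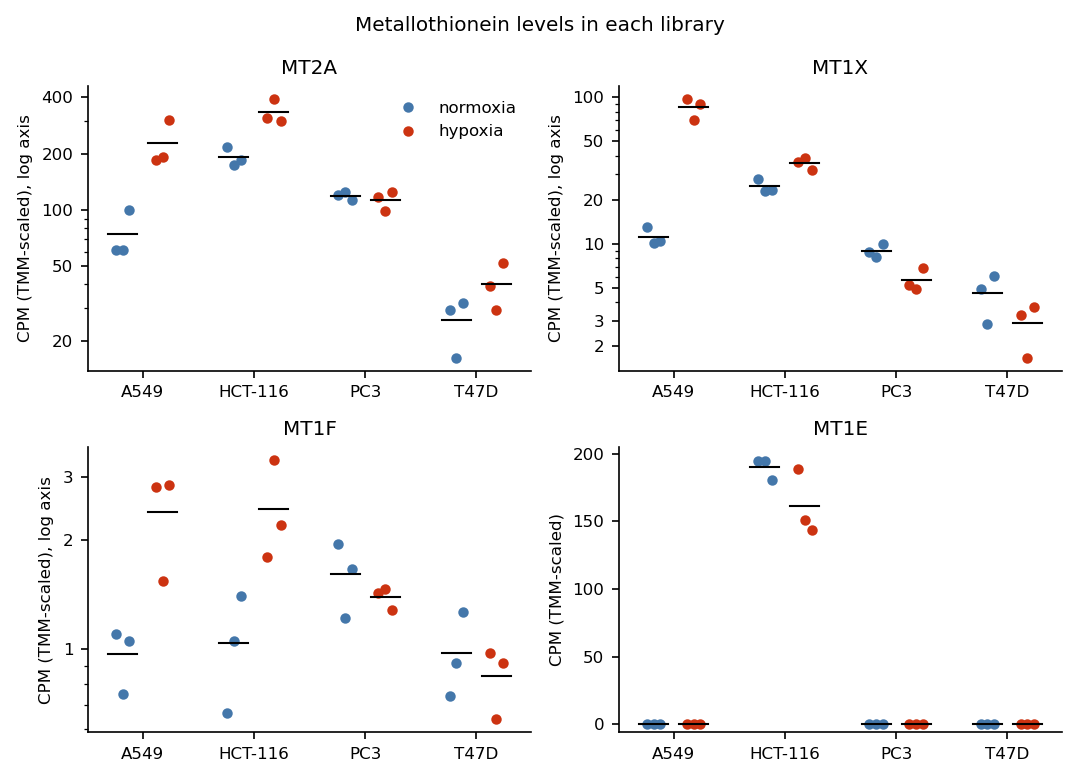
CPM of 4 metallothionein genes in each of the 24 libraries (blue, normoxia; red, hypoxia; black bars, means of 3 libraries), on log axes for MT2A, MT1X and MT1F and on a linear axis for MT1E. MT1X rises 7.62-fold in A549 cells and is lower in hypoxia in PC3 cells, and MT1E has counts only in HCT-116 cells.

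MT1X, a metallothionein of the MT1 subfamily, had the largest fold change of the members tested in A549 cells, and its direction differed between lines. In A549 cells it stood at 13, 10.1 and 10.5 CPM in normoxia and at 97.5, 69.6 and 89.8 CPM in hypoxia. All 3 hypoxia libraries were far above all 3 normoxia libraries. MT1X rose by 7.62-fold (log2 fold change 2.93 ± 0.15, edgeR adjusted p 1.85e-07), and leaving out each A549 library in turn gave log2 fold changes between 2.83 and 3.07.

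In HCT-116 cells MT1X was at 27.8, 22.9 and 23.4 CPM in normoxia and at 36.3, 38.3 and 31.9 CPM in hypoxia. The states did not overlap, but the log2 fold change of 0.40 ± 0.19 was not called (edgeR adjusted p 0.0871). With the correction for GC content and length it was 1.51, and called (adjusted p 0.000549). In PC3 cells MT1X was at 8.82, 8.12 and 10 CPM in normoxia and at 5.27, 4.93 and 6.82 CPM in hypoxia. All 3 hypoxia libraries were below the normoxia libraries, and MT1X fell by 0.71 on the log2 scale (SE 0.17, edgeR adjusted p 0.0132). This call was lost with the correction for GC content and length (log2 fold change -0.35, adjusted p 0.106), in 1 fit of all 24 libraries (-0.66, adjusted p 0.0965) and without PC3 hypoxia replicate 2 (-0.62, adjusted p 0.0586). In PC3 cells the 72 tested genes with transcripts under 500 nt had a median log2 fold change of -0.42.

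In T47D cells MT1X was at 4.94, 2.83 and 6.02 CPM in normoxia and at 3.27, 1.67 and 3.73 CPM in hypoxia, for replicates 1 to 3. The ranges overlapped, while MT1X was lower in hypoxia in 3 of 3 same-numbered pairs. Its log2 fold change was -0.74 ± 0.37 (edgeR adjusted p 0.192), and -0.76 with the replicate block (adjusted p 0.0469). With the block and the correction for GC content and length together, the log2 fold change of MT1X was -0.15 (adjusted p 0.663) and that of MT2A was 1.07 (adjusted p 0.00956). The 87 tested genes with transcripts under 500 nt had a median log2 fold change of -0.39 in T47D cells.

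Hypoxia affected MT1X, MT2A and MT1F differently across the 4 lines in 1 edgeR fit of all 24 libraries, which tested the interaction of line and oxygen state and passed its threshold for 18.3% of 16089 genes. The adjusted p of the interaction was 5.4e-07 for MT1X, 0.0105 for MT2A and 0.0307 for MT1F, while for MTF1 and SLC30A1 it was 0.337 and 0.674. After correction of this fit for GC content and length, a step chosen with the data in view, it was 1.08e-06 for MT1X, 0.0257 for MT2A and 0.0242 for MT1F. With 1 replicate number of every group left out, the interaction passed its threshold each time for MT1X and never for MT1F. For MT2A it passed only without replicate 3. The effect on MT1X in A549 cells exceeded that in HCT-116 cells by 2.41 ± 0.34 on the log2 scale, that in PC3 cells by 3.59 ± 0.35 and that in T47D cells by 3.6 ± 0.35 (edgeR adjusted p 0.00012, 1.64e-06 and 9.3e-07). The effect on MT1X in HCT-116 cells exceeded that in PC3 cells by 1.18 (adjusted p 0.0226) and that in T47D cells by 1.2 (adjusted p 0.0321), and the effects in PC3 and T47D cells differed by 0.01 ± 0.34. For MT2A only the pair of A549 and PC3 passed the threshold among the 6 pairs of lines, with a difference of 1.69 ± 0.34 (adjusted p 0.0124). For MT1F no pair passed, with the lowest adjusted p, 0.0557, between HCT-116 and PC3 cells.

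**Figure D3:**
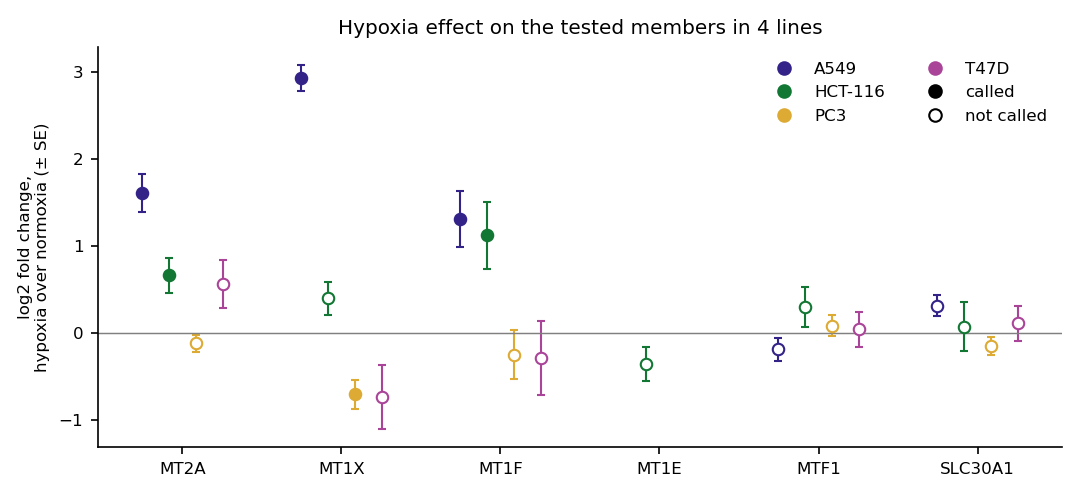
log2 fold change in hypoxia with its standard error (bars) for the 6 members that could be tested, in A549, HCT-116, PC3 and T47D cells; filled points were called and open points were not. MT1X spans from 2.93 in A549 cells to -0.74 in T47D cells, while MTF1 and SLC30A1 stay between -0.19 and 0.31.

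MT1X and MT2A have transcripts of nearly the same length (404 and 401 nt), and the ratio of their counts within a library does not depend on how libraries are scaled. This comparison was added after the data were seen. In A549 cells there were 21.4, 16.5 and 10.5 MT1X counts per 100 MT2A counts in normoxia and 52.8, 36.1 and 29.7 in hypoxia. In T47D cells there were 17, 17.5 and 18.9 per 100 in normoxia and 8.36, 5.7 and 7.2 in hypoxia. The states did not overlap in either line, and the ratio was 2.48-fold higher in hypoxia in A549 cells and 2.53-fold lower in T47D cells.

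In PC3 cells the ratio was 7.32, 6.5 and 8.83 per 100 in normoxia and 4.5, 4.99 and 5.47 in hypoxia, 1.51-fold lower. In HCT-116 cells it was 12.7, 13.1 and 12.6 in normoxia and 11.8, 9.79 and 10.7 in hypoxia, 1.2-fold lower. The states did not overlap in any of the 4 lines, and the ratio was lower in hypoxia in 3 lines and higher in A549 cells. In HCT-116 cells MT1X itself was higher in hypoxia, at a mean of 35.5 CPM against 24.7 CPM in normoxia. An exact permutation test (two-sided, n = 3 and 3) gave p = 0.1 in each line, which is the smallest p that 3 libraries against 3 can give. After the correction for GC content and length, the log2 ratio changed by 1.46 in A549, -0.03 in HCT-116, -0.45 in PC3 and -1.19 in T47D cells, against 1.31, -0.26, -0.59 and -1.34 without it. MT1X has a GC content of 49.3% and MT2A of 55.6%.

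**Figure D4:**
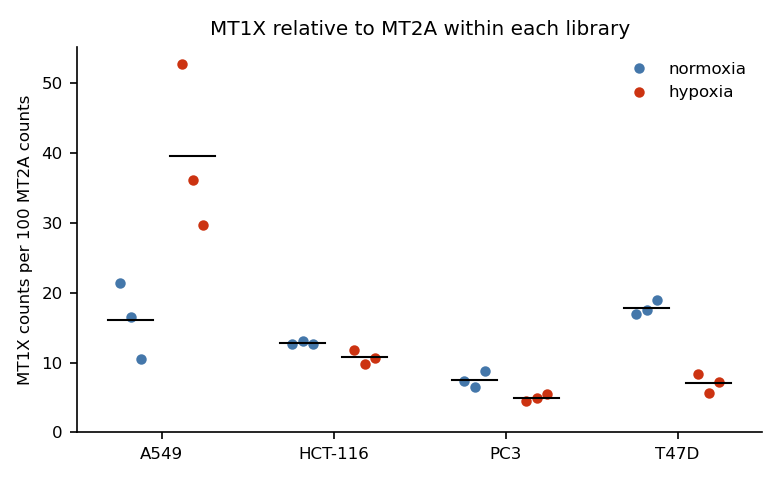
MT1X counts per 100 MT2A counts in each library (blue, normoxia; red, hypoxia; black bars, means of 3 libraries). The hypoxia libraries sit above the normoxia libraries in A549 cells and below them in HCT-116, PC3 and T47D cells.

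MT1E, another MT1 metallothionein, was counted in HCT-116 cells only. It stood at 195, 195 and 181 CPM in HCT-116 normoxia and at 189, 151 and 144 CPM in hypoxia, and had 0 counts in all 18 libraries of the other lines. Against the floor of 3 counts in a library, the HCT-116 mean was at least 1531-fold higher in normoxia and at least 2297-fold higher in hypoxia. The oxygen states of HCT-116 cells overlapped for MT1E, whose log2 fold change was -0.36 ± 0.20 (edgeR adjusted p 0.143), and 0.11 with the correction for GC content and length (adjusted p 0.654). MT1E counts per 100 MT2A counts were 89.3, 112 and 97.6 in normoxia and 61.4, 38.7 and 48.2 in hypoxia. These did not overlap and fell 2.04-fold (exact permutation test, two-sided, n = 3 and 3, p = 0.1, the smallest possible).

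MT1F, a further MT1 metallothionein, was counted at a low level in every library, between 32 and 174 counts. In A549 cells it was at 1.1, 0.752 and 1.05 CPM in normoxia and at 2.82, 1.54 and 2.85 CPM in hypoxia. The states did not overlap and MT1F rose by 2.48-fold (log2 fold change 1.31 ± 0.32, edgeR adjusted p 0.00824). In HCT-116 cells it was at 0.665, 1.05 and 1.4 CPM in normoxia and at 1.8, 3.33 and 2.21 CPM in hypoxia, again without overlap. Its log2 fold change there was 1.12 ± 0.39 (edgeR adjusted p 0.0304), and leaving out HCT-116 hypoxia replicate 2, normoxia replicate 1 or normoxia replicate 2 raised the adjusted p to 0.139, 0.0768 and 0.0565. Corrected for GC content and length, the log2 fold change of MT1F in HCT-116 cells was 2.03 (edgeR adjusted p 0.00404). In PC3 and T47D cells MT1F stood at means of 1.39 ± 0.101 and 0.841 ± 0.178 CPM in hypoxia (SD, n = 3). The normoxia means there were 1.61 ± 0.37 and 0.977 ± 0.271 CPM, the states overlapped, and the log2 fold changes of -0.25 and -0.29 were not called (edgeR adjusted p 0.516 and 0.679).

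The remaining metallothioneins were at or near 0. MT1G had 0 counts in all 24 libraries, which allows no more than the floor of 3 counts in any of them. MT1M had at most 6 counts in a library, with 0 in all A549 and HCT-116 libraries. MT3, known mainly from the brain, had at most 5 counts, with 0 in all HCT-116 and PC3 libraries. Of 11 other metallothionein genes and pseudogenes, 8 were among the counted symbols. MT1A in A549 cells (log2 fold change 0.25, edgeR adjusted p 0.506) and the pseudogene MT1DP in A549 (0.13, 0.89) and HCT-116 cells (-1.16, 0.155) had enough counts to be tested, and were named for that reason.

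Summed over MT2A and all MT1 genes, counts rose in A549 cells by a log2 fold change of 1.84 ± 0.19 (edgeR adjusted p 3.79e-05), from a mean of 87.8 ± 22.2 CPM to 316 ± 70.3 CPM (SD, n = 3). The sum stood at 409 ± 28.5 and 532 ± 54.5 CPM in HCT-116, at 130 ± 4.67 and 121 ± 14.2 CPM in PC3 and at 31.4 ± 10.1 and 43.8 ± 12.5 CPM in T47D cells, in normoxia and hypoxia. Its log2 fold changes in these 3 lines, 0.25 ± 0.20, -0.16 ± 0.10 and 0.41 ± 0.27, were not called (edgeR adjusted p 0.308, 0.247 and 0.33). The fit of the sum was not repeated with the correction for GC content and length. That correction moved the log2 fold change of MT2A alone from 0.66 to 1.54 in HCT-116 cells. Per length, MT2A made up 84.1% ± 4.38 of this pool in A549 normoxia and 71.3% ± 6.01 in hypoxia, while MT1X went from 13.3% ± 3.88 to 27.5% ± 5.8 (SD, n = 3). In HCT-116 cells MT1E made up 33.3% ± 2.44 of the pool in normoxia and 20.1% ± 3.58 in hypoxia, and MT2A 58.9% ± 2.31 and 71.8% ± 3.76. The share of MT1X there was 7.49% ± 0.2 in normoxia and 7.64% ± 0.303 in hypoxia. In T47D cells MT1X went from 14.5% ± 0.671 to 6.44% ± 1.13 of the pool.

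MTF1, the zinc-sensing transcription factor, was not called in any line. It stood at 19.5, 17.4 and 22 CPM in A549 normoxia and at 17, 19.2 and 15.7 CPM in hypoxia, and in HCT-116 cells at 35.3, 22.3 and 24.2 CPM in normoxia and 43.8, 29.6 and 36.1 CPM in hypoxia. The states overlapped in both lines, and the log2 fold changes were -0.19 ± 0.13 and 0.30 ± 0.23 (edgeR adjusted p 0.298 and 0.3). The mean was 26.4 ± 4.51 and 28.9 ± 2.1 CPM in PC3 cells and 22.5 ± 1.41 and 24.5 ± 4.86 CPM in T47D cells, in normoxia and hypoxia, with overlap and log2 fold changes of 0.08 and 0.04 (edgeR adjusted p 0.623 and 0.915). With the correction for GC content and length, MTF1 was called down in A549 cells at a log2 fold change of -0.33 (adjusted p 0.0498). Without HCT-116 normoxia replicate 1, MTF1 was called up in HCT-116 cells at 0.61 (edgeR adjusted p 0.0416).

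SLC30A1, which codes for the zinc exporter ZnT1 of the plasma membrane, was nearest to a call in A549 cells. It was at 30.6, 32.9 and 36.7 CPM in A549 normoxia and at 37.1, 43.4 and 44.6 CPM in hypoxia. The states did not overlap, and the log2 fold change was 0.31 ± 0.12 (edgeR adjusted p 0.052). It passed the threshold with DESeq2 (adjusted p 0.0484), with RLE size factors (0.0492), with a mean count of at least 50 (0.0456) and with the correction for GC content and length (log2 fold change 0.46, adjusted p 0.0138). It did not pass with scaling to total counts (log2 fold change 0.20, edgeR adjusted p 0.175), without a filter (0.0596) or in 1 fit of all 24 libraries (0.31). Leaving out 1 A549 library gave adjusted p values between 0.0286 and 0.196, of which those without hypoxia replicate 1 or normoxia replicate 3 passed. Its mean was 11.1 ± 4.16 and 12.7 ± 2.63 CPM in HCT-116, 30.1 ± 1.76 and 28.1 ± 3 CPM in PC3 and 18.1 ± 3.82 and 20.6 ± 1.16 CPM in T47D cells, in normoxia and hypoxia (SD, n = 3). The states overlapped in these 3 lines, where the log2 fold changes of 0.07, -0.15 and 0.11 were not called (edgeR adjusted p 0.841, 0.288 and 0.749). Counting members with no overlap of states gave 4 of 5 in A549 (all tested but MTF1), 3 of 6 in HCT-116, 1 of 5 in PC3 and 0 of 5 in T47D cells, where 47.9%, 60.4%, 50.6% and 32.3% of all genes tested had none.

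**Figure D5:**
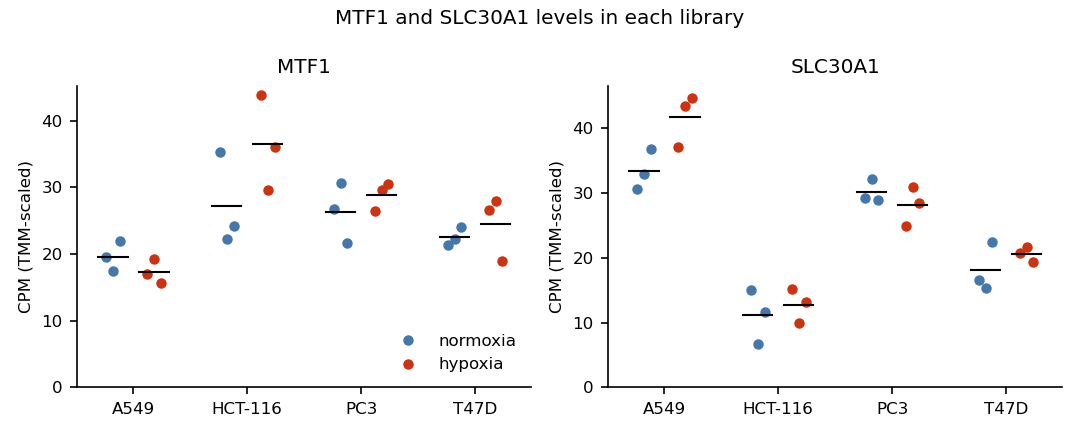
CPM of MTF1 and SLC30A1 in each library on linear axes from 0 (blue, normoxia; red, hypoxia; black bars, means of 3 libraries). The states overlap everywhere except for SLC30A1 in A549 cells, and normoxia means of SLC30A1 run from 11.1 CPM in HCT-116 to 33.4 CPM in A549 cells.

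Levels in normoxia were compared between lines in an edgeR fit of the 12 normoxia libraries, in which 93.5% of 15616 genes differed between the 4 lines. MT2A was highest in HCT-116 (193 ± 22.7 CPM), then in PC3 (120 ± 5.85 CPM), A549 (74.1 ± 22.7 CPM) and T47D cells (25.8 ± 8.38 CPM; SD, n = 3 each), and each neighbour in this order differed (adjusted p 0.0171, 0.019 and 3.48e-05). Between these neighbours 65.6%, 60% and 66.6% of all genes differed. MT1X was highest in HCT-116 cells (24.7 ± 2.7 CPM) and lowest in T47D cells (4.6 ± 1.62 CPM). Of all genes 68.5% differed between this pair. A549 and PC3 cells, at 11.2 ± 1.59 and 8.98 ± 0.952 CPM, lay between them and did not differ beyond their spread (adjusted p 0.251).

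SLC30A1 followed another order: A549 (33.4 ± 3.09 CPM) and PC3 cells (30.1 ± 1.76 CPM) did not differ beyond their spread (edgeR adjusted p 0.595), T47D cells (18.1 ± 3.82 CPM) were lower than PC3 cells (adjusted p 0.01, a pair with 67.8% of all genes different) and HCT-116 cells (11.1 ± 4.16 CPM) were lower than T47D cells (adjusted p 0.0133). HCT-116 cells thus had the highest MT2A and the lowest SLC30A1 level of the 4 lines. MT1F (adjusted p 0.226) and MTF1 (adjusted p 0.0864) did not pass the test over the 4 lines, although the A549 and HCT-116 pair passed for MTF1, at 19.6 ± 2.28 and 27.3 ± 7.01 CPM (adjusted p 0.0363, a pair with 64.9% of all genes different). Corrected for GC content and length in the same way, MTF1 passed the test over the 4 lines (adjusted p 4.19e-06) and MT1F did not (0.0832). Compared per kilobase of transcript in HCT-116 normoxia, MT2A stood at 481, MT1E at 270 and MT1X at 61.1 CPM per kb, while MTF1 stood at 3.43 and SLC30A1 at 1.89 CPM per kb.

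Of 9 further members of the SLC30 family, most of which carry zinc out of the cytosol, 2 of 6 tested were called down in HCT-116 and 1 of 5 in PC3 cells, while the lowest edgeR adjusted p was 0.0719 among 6 in A549 and 0.16 among 5 in T47D cells. Of all genes 27% were called down in HCT-116 and 15.7% in PC3 cells, near the shares of these few exporters. The median log2 fold change of these exporters was -0.07, -0.39, -0.22 and -0.22 in A549, HCT-116, PC3 and T47D cells, beside medians between -0.03 and -0.01 for all genes. The genes called were SLC30A6 (-0.97 ± 0.22, edgeR adjusted p 0.00295) and SLC30A9, known to export zinc from mitochondria (-0.75 ± 0.21, adjusted p 0.00934), in HCT-116 and SLC30A7 (-0.27 ± 0.09, adjusted p 0.0418) in PC3 cells, named after their values were seen. With the correction for GC content and length all 3 calls were lost (adjusted p 0.102, 0.0946 and 0.287).

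Of 14 importers of the SLC39 family, which bring zinc into the cytosol, 3 of 10 tested were called up in A549, 1 of 10 up and 2 down in HCT-116, 2 of 10 up and 1 down in PC3 and 1 of 11 up in T47D cells. Of all genes 35.5%, 50.3%, 32.3% and 13.2% were called in A549, HCT-116, PC3 and T47D cells. This was near the share of these few importers in A549, PC3 and T47D cells, and above it in HCT-116 cells. The importers had median log2 fold changes of -0.07, 0.01, 0.05 and 0.18. SLC39A14, which carries zinc and iron, was the only importer called up in 2 lines, with 0.35 ± 0.11 in A549 and 0.33 ± 0.094 in PC3 cells (edgeR adjusted p 0.0307 and 0.0251), named after its values were seen. It lost the A549 call without any of 4 of the 6 A549 libraries, and the PC3 call without hypoxia replicate 1, hypoxia replicate 2 or normoxia replicate 1 (edgeR adjusted p 0.1, 0.0826 and 0.0965) and in 1 fit of all 24 libraries (0.132). The other importers called up were SLC39A1 and SLC39A13 in A549, SLC39A4 in HCT-116, SLC39A11 in PC3 and SLC39A2 in T47D cells, and those called down were SLC39A9 and SLC39A10 in HCT-116 and SLC39A8 in PC3 cells. These too were named after their values were seen, and SLC39A4 turned to -0.01 with the correction for GC content and length. The level of SLC39A2 in T47D hypoxia was 1.30 ± 0.0897 CPM.

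Copper, which metallothioneins also bind, has its own carriers and chaperones. Of the copper-handling genes tested, 2 were called up and 4 down of 13 in A549, 2 up and 7 down of 14 in HCT-116, 2 up and 1 down of 14 in PC3 and 2 down of 14 in T47D cells, with medians of -0.19, -0.57, -0.22 and -0.30. Down calls made up 17.8%, 27%, 15.7% and 6.69% of all genes in the same lines, and up calls 17.6%, 23.3%, 16.6% and 6.55%. STEAP3, a metalloreductase, was called up in A549 (log2 fold change 1.55) and PC3 (0.34) and down in T47D cells (-0.74), and COX17, a copper chaperone of the mitochondrion, was called down in A549 (-0.35), HCT-116 (-1.45) and T47D cells (-0.97). With the correction for GC content and length, the calls of COX17 were lost in all 3 lines (edgeR adjusted p 0.997, 0.554 and 0.262).

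Targets of the glucocorticoid receptor were called up in 3 of 9 tested in A549, 7 of 9 in HCT-116, 4 of 8 in PC3 and 3 of 10 in T47D cells, and every call was up. Up calls made up 17.6%, 23.3%, 16.6% and 6.55% of all genes in these lines. The medians of these targets were 0.13, 1.36, 0.44 and 0.42, beside -0.01, -0.03, -0.01 and -0.01 for all genes. DUSP1, a phosphatase of MAP kinases, rose in all 4 lines (log2 fold change 0.95, 2.08, 1.22 and 0.93 in A549, HCT-116, PC3 and T47D cells), and ERRFI1, an inhibitor of the EGF receptor, rose in A549, HCT-116 and PC3 cells (2, 1.96 and 1.33). Of the targets of the oxidative stress factor NRF2, those called were 3 up and 4 down of 16 in A549, 6 up and 4 down of 15 in HCT-116, 2 up and 4 down of 16 in PC3 and 1 up and 1 down of 13 in T47D cells, or 1 up and 2 down with the replicate block there. Of all genes 35.5%, 50.3%, 32.3% and 13.2% were called in these lines. TXN was called down in A549, HCT-116 and T47D cells (-0.51, -1.69 and -1.01), although its direction turned with the correction in A549 and HCT-116 cells (0.18 and 0.13). In T47D cells TXN was at -0.10 with it (edgeR adjusted p 0.799), and its call was also lost without hypoxia replicate 1 or 2 or normoxia replicate 1 or 2 (0.127, 0.126, 0.198 and 0.17). SLC7A11 was called down in A549, HCT-116 and PC3 cells (-0.68, -0.71 and -0.60), and TXNRD1 and AKR1C1 were called in opposite directions in A549 and PC3 cells. In PC3 cells AKR1C1 stood at 2.07 ± 0.122 CPM in normoxia and at 8.28 ± 7.74 CPM in hypoxia (SD, n = 3). The spread between its hypoxia libraries was thus nearly as large as their mean.

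The genes whose levels ran most like those of 4 members were sought by Pearson's r of log2 CPM over the 24 libraries, among 13287 genes; the libraries share 4 lines and 2 oxygen states, so r also follows differences between lines. For MT2A these were KDSR (r = 0.956), RHOA (0.937) and TMEM64 (0.931), and for MT1X they were COL4A3 (0.88), SLC45A1 (0.875) and SLC2A3 (0.874). For MTF1 they were SFMBT1 (0.892), CASP2 (0.884) and QRICH1 (0.879), and for SLC30A1 they were SLC25A13 (0.957), FADS2 (0.949) and AQR (0.946). Among the members themselves, r was 0.83 between MT2A and MT1X, 0.69 between MT2A and MT1F, 0.27 between MT2A and MTF1 and -0.09 between MT2A and SLC30A1.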

How the data were processed

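PolyA RNA-seq of 24 libraries was analyzed. The authors trimmed reads with Trim Galore 0.3.3, aligned them to GRCh37 with HISAT2, removed fragments without a unique position with Picard 2.0.1 and counted them on UCSC-defined genes with HTSeq, per the methods and the submitters' processing notes. The deposited values are whole-number counts per gene symbol, without normalization. Removing fragments that map to several positions lowers the counts of near-identical metallothioneins, and intersection-strict counting leaves out fragments that reach beyond the annotated exons.

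Computed here, fold changes came from edgeR 4.0.16 in R 4.3.3 (filterByExpr, TMM, glmQLFit and glmQLFTest), with a separate fit for each line and 1 fit of all 24 libraries for differences between lines. The Benjamini-Hochberg adjustment ran over all genes tested. The SE of a log2 fold change is its absolute value divided by the square root of the F statistic of its test. It thus restates that test and is no separate measure of spread. Levels used TMM factors over all libraries. The members and gene lists were chosen with earlier results of these data known. Named outside the members are up to 4 genes per list, called in at least 3 lines in 1 direction or in opposite directions in 2 lines, and the 3 genes most like a member; zinc transporters met neither rule.

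The fits within lines were repeated without a filter or with only genes of mean count 50 or more, with RLE or total-count scaling in place of TMM, with DESeq2 1.42.0, with a replicate block, and with GC content and transcript length corrected for (splines with 5 degrees of freedom, 20098 of 23106 symbols matched in GENCODE 44), as well as at stricter thresholds and with each library left out. The interaction had the same alternatives, with each replicate number left out in place of each library. The normoxia fit had no DESeq2 or block alternative. The fits of summed counts had no alternative with other filters, stricter thresholds or the correction for GC content and length. Correction of the fits between lines for GC content and length was chosen after seeing the data. Ratios of 2 genes were tested by exact permutation (scipy 1.17.1). Fits were tested on simulated counts. The 24 pairs of libraries within a group differed by more than sampling noise (chi-square per degree of freedom of at least 11.8), so none was counted as a repeat.

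The labels use replicate numbers 1 to 3 in both oxygen states. After subtracting group means, log2 CPM of same-numbered libraries correlated at 0.149, 0.322 and 0.299 in T47D cells, so the numbers were taken to pair these libraries. In the other lines the same-numbered pairs were positive too, up to 0.289 in HCT-116 cells, but at least 1 pair in each was under 0.1.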

Additional observations from a re-analysis of the deposited data

Results flagged for a closer look

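The hypoxia effect differed between the 4 lines for 3 members, by the interaction of line and oxygen state in 1 edgeR fit of all 24 libraries. Of the 16089 genes in this fit, 18.3% passed the same threshold. The adjusted p was 5.4e-07 for MT1X, whose log2 fold change was 2.93 in A549, 0.40 in HCT-116, -0.71 in PC3 and -0.74 in T47D cells. It was 0.0105 for MT2A, at 1.61, 0.66, -0.12 and 0.56 in the same order, and 0.0307 for MT1F, at 1.31, 1.12, -0.25 and -0.29. Without replicate 1, 2 or 3 of every group the interaction kept an adjusted p of at most 0.00204 for MT1X, while that of MT2A was 0.13, 0.108 and 0.0103 and that of MT1F was 0.159, 0.298 and 0.134. Groups of 3 libraries are too small for the outlier test used with larger groups.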

How the results depend on the processing

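With the correction for GC content and length, with or without the block, 5 members were called in A549 and 0 in PC3 cells, against 3 and 1; in T47D cells 2 were called with the replicate block and 1 with block and correction, against 0. In 1 fit of all 24 libraries 0 members were called in PC3 cells. At an adjusted p under 0.01, 0 were called in HCT-116 and PC3 cells and 1 member differed between lines. The share of all genes at this threshold is not given here, so these counts cannot be set against genes in general. Leaving out 1 library gave 0 to 3 calls in HCT-116 cells and 0 to 1 in PC3 cells. Over all genes the fits without 1 library called 2591 to 3462 up and 2719 to 3357 down in HCT-116 cells. In PC3 cells they called 1308 to 2629 up and 875 to 2732 down. Leaving out 1 replicate number gave 1 to 2 members that differed between lines, and the share of all genes is not given for these fits either. In normoxia 4 members differed between lines, where 93.5% of 15616 genes did, and 5 without replicate 3 of every group or with the correction. Over all genes, calls up and down in A549, PC3 and T47D cells were 2452 and 2476, 2237 and 2109, and 922 and 942. In 1 fit of all libraries they were 1427 and 1182, 867 and 425, and 2231 and 1599. Scaling to total counts gave 1778 and 3461 in A549 and 666 and 1412 in T47D cells, and the GC content and length correction gave 2903 and 1487 and 1049 and 442 (with the block 3478 and 1935 and 2256 and 1141). Without T47D normoxia replicate 1 they were 180 and 19, the fewest of the 6 omissions, and without T47D hypoxia replicate 3 they were 1549 and 1756, the most.

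Some values changed sign, none of a called member. With the correction, without and with the block, these were MT1E (0.11 and 0.10) and MTF1 (-0.16 and -0.17) in HCT-116, MT2A (0.10 and 0.11), MT1F (0.05 and 0.06) and MTF1 (-0.11 and -0.11) in PC3, MT1F (0.17 and 0.22) and MTF1 (-0.03 and -0.04) in T47D, TXN in A549 (0.18 and 0.18) and HCT-116 (0.13 and 0.17), and SLC39A4 in HCT-116 cells (-0.01 without the block). MTF1 in T47D cells was at -0.06 with scaling to total counts, which moved the median of all genes to -0.12 there and to -0.13 in A549 cells. Leaving out 1 library gave -0.11 to 0.43 for SLC30A1 in HCT-116, including -0.02, -0.02 to 0.19 for MTF1 in PC3 and -0.05 to 0.19 for MTF1 in T47D cells, including -0.02. The cause was not tested. The replicate block changed no call of a member outside T47D cells; every library correlated best with its own number in PC3 and T47D cells, not in A549 and HCT-116 cells. Low counts limit MT1F, and MT1G, MT1M and MT3 could not be tested.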
